A study of Mus musculus with 24 samples.

Results

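The genes described here carry glucose production and glucose handling in the liver: Pck1, G6pc, Fbp1, Pcx, Ppargc1a, Foxo1, Slc2a2, Gys2 and Pklr. They were taken by name, as all probe sets on the array annotated with 1 of these symbols and no other, which gave 9 of the 18193 genes tested, with 24 probe sets in all. Messenger RNA was measured on Affymetrix oligonucleotide arrays in liver and hindleg muscle of newborn C57BL/6 mice on day 0 after birth. The dams ate 1 of 4 diets from day 1 of pregnancy until birth. The low protein diet (LP) held 8% casein, and LPtau was the same diet with 1% taurine in the drinking water. NPtau was a normal protein diet of 20% casein with 1% taurine in the water, and NP was the 20% casein diet with plain water. Each diet had 3 arrays in each tissue, 24 in all, and that number limits the precision. The labels call them biological replicates and do not tell whether littermates were used, so each p-value reflects only the spread of these samples, which may in part be technical. All values are log2 expression values made with robust multi-array averaging (RMA), in which 1 unit is a doubling, and they are comparable between arrays of a tissue and not between tissues or between genes.

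Gluconeogenesis makes glucose from lactate, amino acids and glycerol. At birth the supply of glucose through the placenta ends, and the liver of a newborn mouse or rat switches on this route under glucagon and falling insulin. Pyruvate carboxylase (Pcx) and phosphoenolpyruvate carboxykinase (Pck1) turn pyruvate into phosphoenolpyruvate, fructose-1,6-bisphosphatase (Fbp1) works further along the route, and the catalytic subunit of glucose-6-phosphatase (G6pc) releases free glucose. The coactivator Ppargc1a and the forkhead factor Foxo1, which insulin signalling keeps out of the nucleus, raise transcription of this route. Slc2a2 (GLUT2) carries glucose across the hepatocyte membrane, liver glycogen synthase (Gys2) stores it, and liver pyruvate kinase (Pklr) runs the last step of glycolysis, against gluconeogenesis.

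The start regions of Pck1 and Pklr hold sequences long known in their control by hormones and glucose. Those of G6pc and Ppargc1a hold shorter motif matches. They are shown as background, and no link between them and the values of these arrays was tested. RefSeq windows of 300 bases (250 before a transcript start and 50 after it, build GRCm38.p6, gene strand) were matched by symbol to 8 of the 9 genes, in 10 windows. Gys2 is named only. Capitals mark the motif. In Pck1 (chr2:173152823-173153122, plus strand) it is the cyclic AMP response element TTACGTCA, 93 bases before the start. In G6pc (chr11:101367466-101367765, plus strand) it is TGTTTTG, the core of an insulin response sequence that Foxo1 binds. In Ppargc1a (chr5:51567676-51567975, minus strand) it is CGTCA, the core of a cyclic AMP response element. In Pklr (chr3:89136373-89136672, plus strand, around the downstream of its starts) it is the carbohydrate response element, a pair of mirrored boxes around a spacer.
Pck1: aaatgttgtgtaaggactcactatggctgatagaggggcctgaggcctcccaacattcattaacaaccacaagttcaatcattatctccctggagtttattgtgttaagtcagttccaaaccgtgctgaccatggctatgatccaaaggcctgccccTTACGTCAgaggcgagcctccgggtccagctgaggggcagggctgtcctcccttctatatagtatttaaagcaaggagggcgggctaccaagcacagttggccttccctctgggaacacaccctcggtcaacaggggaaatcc
G6pc: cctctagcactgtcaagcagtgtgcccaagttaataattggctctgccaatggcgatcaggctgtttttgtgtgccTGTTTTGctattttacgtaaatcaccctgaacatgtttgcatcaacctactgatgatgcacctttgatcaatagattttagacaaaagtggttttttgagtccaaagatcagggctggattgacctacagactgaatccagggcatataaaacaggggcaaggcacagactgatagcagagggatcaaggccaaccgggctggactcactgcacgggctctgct
Ppargc1a: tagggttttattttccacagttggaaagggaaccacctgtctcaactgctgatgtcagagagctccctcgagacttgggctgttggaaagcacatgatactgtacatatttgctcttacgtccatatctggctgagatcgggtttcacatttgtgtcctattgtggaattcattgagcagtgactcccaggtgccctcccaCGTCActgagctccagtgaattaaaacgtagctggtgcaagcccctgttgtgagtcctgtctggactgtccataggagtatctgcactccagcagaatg
Pklr: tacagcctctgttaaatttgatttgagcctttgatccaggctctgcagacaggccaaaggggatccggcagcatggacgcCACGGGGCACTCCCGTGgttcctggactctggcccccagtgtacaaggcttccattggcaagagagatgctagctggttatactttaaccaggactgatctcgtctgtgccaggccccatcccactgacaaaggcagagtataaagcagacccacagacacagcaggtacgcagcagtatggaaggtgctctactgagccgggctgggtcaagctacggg
On either strand, TTACGTCA was found in 0.499% of the 32851 windows of the table, TGTTTTG in 6.28%, CGTCA in 20.8% and the Pklr motif in 1 window (0.00304%). The Pck1 element holds CGTCA within it. The Pck1 and Pklr motifs were searched because they are the textbook elements of these genes, so their rarity elsewhere is no result. The palindrome TGACGTCA, in 1.79% of windows, and the forkhead core TGTTTAC, in 3.65%, were in none of the 10 windows. A match is a description of these letters and not a test of binding.

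The tissue labels matched the markers. Albumin lay at 14.85 to 15.01 in the livers, and creatine kinase (Ckm) at 13.28 to 14.22 and skeletal actin (Acta1) at 14.20 to 14.91 in the muscles. Median values per array spanned 5.36 to 5.39 among livers and 4.95 to 5.04 among muscles. By the level of Xist 12 of the 24 arrays came from females, and liver and muscle arrays of the same number in a diet were of the same sex in 12 of 12 pairs. Among the livers, LP replicate 1 and NPtau replicate 2 had the lowest Pck1 and G6pc values, and LP replicate 1 also moved the count over all genes. LP against NP called 425 genes with all arrays and 2013 without LP replicate 1.

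In the liver, 2 of the 9 genes, Fbp1 and Gys2, fell in LP against NP. A call means a limma p under 0.05 after Benjamini-Hochberg adjustment over all genes. Of all genes tested, 2.34% were called in either direction and 1.23% as lower. The difference was negative for 8 of the 9, with Slc2a2 the exception, and the median of the 9 was -0.52, against 0.05 over all genes. Without LP replicate 1 Fbp1 and Gys2 were still called, 5 of the 9 were negative and the median was -0.11. For 3 of the 9, G6pc, Fbp1 and Gys2, every LP array lay below every NP array, which held for 10.9% of all genes. With bulk tissue, fewer hepatocytes and less of a transcript per hepatocyte cannot be told apart. The mean of 8 hepatocyte markers, relative to NP, was -0.01 to 0.04 on the LP arrays and -0.21 to 0.11 on the NP arrays. Among the 8, Alb, Afp, Fgb and Ahsg were lower and Apoa1 was higher in LP without overlap, and none passed. Many markers of other cells of the newborn liver were lower in LP, and some were higher. Of 7 lymphocyte markers 3 fell (Rag1, Ebf1 and Cd79b, list median -1.22). The mean of the 7 relative to NP was -1.34 to -0.88 on LP arrays and -0.10 to 0.08 on NP arrays. Pax5 was higher on both its probe sets (0.20 and 0.28), and 4 of 5 Ebf1 sets were lower. Of 7 endothelial markers 3 fell (Pecam1, Cdh5 and Esam, list median -0.40). The mean of the 7 was -0.57 to -0.35 on LP arrays and -0.17 to 0.11 on NP arrays. Kdr (0.25) and Tek (0.0075) were higher, and the 2 probe sets of Cdh5 gave -1.11 and 0.02. All 8 neutrophil markers were lower and none passed (median -0.54). The part of these cells in the values of the 9 genes was not tested.

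**Figure D1:**
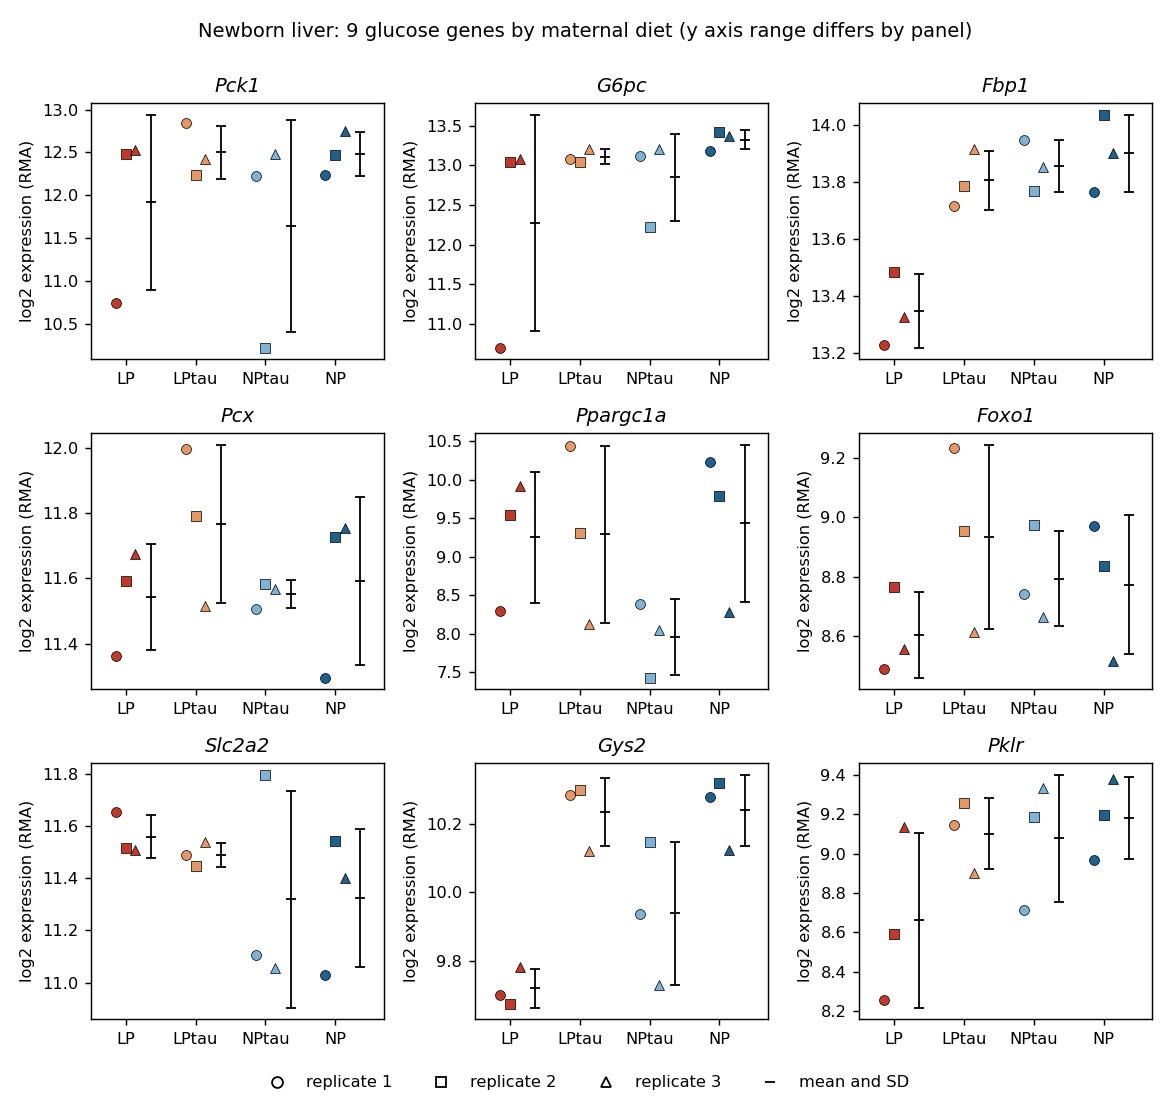
Log2 expression (RMA) of the 9 genes on each of the 12 liver arrays, by maternal diet, 1 panel per gene with its own y range. Points are arrays, and lines with bars are the mean and SD of 3. Fbp1 lies at 13.23 to 13.48 on LP arrays, below the arrays of the other diets, and single low points stand apart in LP and NPtau for Pck1 and G6pc.

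Fbp1 had values of 13.23, 13.48 and 13.33 in LP livers, 13.72, 13.78 and 13.92 in LPtau livers, 13.95, 13.77 and 13.85 in NPtau livers and 13.76, 14.03 and 13.90 in NP livers. The 3 LP livers were the lowest of the 12, and the other diets overlapped. Fbp1 fell by 0.55 in LP against NP (SE 0.11, 95% CI -0.79 to -0.31, limma adjusted p = 0.0324), that is to 0.682 times the NP level. Fbp1 has 1 probe set. The direction was the same with each array left out in turn (-0.62 to -0.49), but the call was lost without LP replicate 2 (adjusted p = 0.0828), LP replicate 3 (0.117), LPtau replicate 2 (0.0518), NP replicate 1 (0.0696), NP replicate 2 (0.0806) or NP replicate 3 (0.109). With sex as a covariate the difference was -0.55 with an adjusted p of 0.0536, where 2 of 3 LP livers and 1 of 3 NP livers were female.

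G6pc had values of 10.70, 13.04 and 13.08 in LP livers, 13.08, 13.04 and 13.21 in LPtau livers, 13.11, 12.22 and 13.21 in NPtau livers and 13.18, 13.41 and 13.36 in NP livers. LP replicate 1 was far below every other array and NPtau replicate 2 was next, while the 3 LP values all lay under the 3 NP values. The difference of LP from NP was -1.05 (SE 0.52, 95% CI -2.18 to 0.09, limma adjusted p = 0.255) and did not pass. Without LP replicate 1 it was -0.26 (SE 0.24, adjusted p = 0.501). The range within a diet was 2.38 in LP and 0.99 in NPtau, against 0.17 in LPtau and 0.23 in NP.

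Pck1 had values of 10.74, 12.49 and 12.53 in LP livers, 12.84, 12.24 and 12.42 in LPtau livers, 12.23, 10.22 and 12.48 in NPtau livers and 12.24, 12.47 and 12.75 in NP livers. The same 2 arrays were low, and all 4 diets overlapped. LP differed from NP by -0.57 (SE 0.58, 95% CI -1.84 to 0.70, limma adjusted p = 0.58), and by 0.02 without LP replicate 1. NPtau differed from NP by -0.84 (SE 0.58, adjusted p = 0.995), and by -0.13 without NPtau replicate 2. A second Pck1 probe set followed the same 2 arrays (9.51 in LP replicate 1 and 9.33 in NPtau replicate 2), and the third Pck1 probe set stayed between 3.41 and 3.78 on all 12 livers. Across the 12 livers Pck1 and G6pc had a Pearson correlation of 0.80, the highest between any of the 9 genes, as a description of arrays that share 2 low points.

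Pcx, the mitochondrial entry step, did not separate the diets. It had values of 11.36, 11.59 and 11.68 in LP livers, 11.997, 11.79 and 11.52 in LPtau livers, 11.50, 11.58 and 11.57 in NPtau livers and 11.30, 11.73 and 11.76 in NP livers. The difference of LP from NP was -0.05 (SE 0.15, 95% CI -0.39 to 0.29), and 0.04 without LP replicate 1. The array carries 4 further Pcx probe sets as hybridization controls along the transcript. The 5′ control set ran from 7.36 to 9.80 over the livers, a range of 2.44, against 0.70 for the 3′ control set and 0.70 for the tested set. The 5′ set was lowest in LPtau replicate 3 (7.36), NP replicate 1 (7.93) and LP replicate 2 (8.36), the arrays on which the 3′ set exceeded it most, by 3.66, 2.88 and 2.79. The 3′ minus 5′ gap of the Actb control sets was largest on the same 3 arrays together with NP replicate 3, at 0.68 to 0.76, against 0.38 to 0.60 on the other arrays. Its part in the Pcx values was not tested.

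Ppargc1a gave different pictures by probe set. The brightest of its 5 sets, which entered the test, had values of 8.30, 9.54 and 9.91 in LP livers, 10.43, 9.31 and 8.13 in LPtau livers, 8.39, 7.43 and 8.05 in NPtau livers and 10.24, 9.79 and 8.28 in NP livers. All diets but NPtau spread over more than 1 unit, LP differed from NP by -0.18 (SE 0.64) and NPtau from NP by -1.48 (SE 0.64, unadjusted p = 0.0402, limma adjusted p = 0.995). A single array turned the sign of the first of these, which was 0.29 without LP replicate 1 and -0.76 without NP replicate 3. One of the 2 dimmest sets had values of 6.42, 7.63 and 7.51 in LP livers, 8.32, 7.58 and 7.86 in LPtau livers, 7.69, 6.73 and 7.56 in NPtau livers and 8.37, 7.99 and 8.00 in NP livers. There the NP values were tight and above all LP and all NPtau values. Over the 4 other sets LP differed from NP by -0.64 to -1.05, 3 of them without overlap. NPtau differed from NP by -0.80 to -1.01, all 4 without overlap. Lower values without overlap held for 10.9% of all genes in LP and 2.4% in NPtau, against NP. In the mean of the 5 sets LP differed from NP by -0.75 (SE 0.39, adjusted p = 0.275), so no set and no mean passed.

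**Figure D2:**
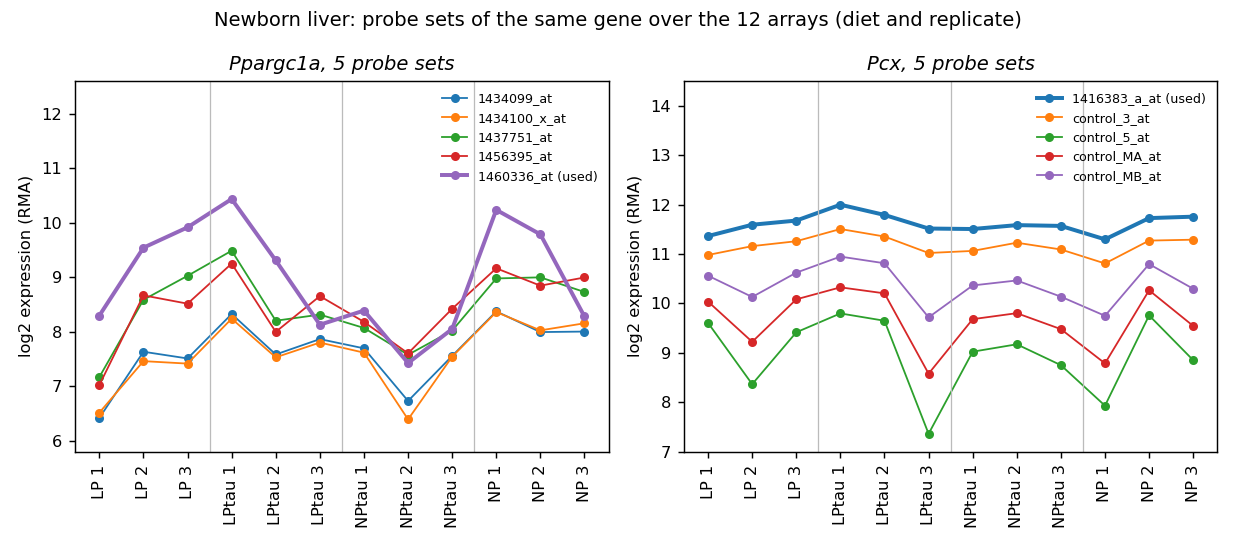
Log2 expression (RMA) of the probe sets of Ppargc1a and of Pcx over the 12 liver arrays, each line 1 probe set, with diet and replicate along the x axis. The thick line is the set used in the test. For Ppargc1a it runs from 8.28 to 10.24 in NP livers, where the blue line, one of the 2 dimmest sets, stays at 7.99 to 8.37, and the 5′ Pcx set drops to 7.36 in LPtau replicate 3 while the tested set stays between 11.30 and 11.997.

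Foxo1 had values of 8.49, 8.77 and 8.56 in LP livers, 9.24, 8.95 and 8.61 in LPtau livers, 8.74, 8.97 and 8.66 in NPtau livers and 8.97, 8.84 and 8.52 in NP livers. The diets overlapped, and LP differed from NP by -0.17 (SE 0.17, limma adjusted p = 0.576), and by -0.11 without LP replicate 1. Of its 4 probe sets 3 were negative and 1 was positive. The positive set is the dimmest, at 4.85 to 5.19, below the array medians of 5.36 to 5.39. The set that is brightest in muscle gave -0.63 (SE 0.20) in liver and the dimmest set gave 0.21 (SE 0.10), both without overlap of LP and NP, and neither passed when every probe set was tested (adjusted p = 0.119 and 0.270).

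Gys2 was the second gene called. It had values of 9.70, 9.68 and 9.78 in LP livers, 10.28, 10.30 and 10.12 in LPtau livers, 9.94, 10.15 and 9.73 in NPtau livers and 10.28, 10.32 and 10.12 in NP livers. LP and NP were apart, LPtau covered the same values as NP, and NPtau overlapped both LP and NP. Gys2 fell by 0.52 in LP against NP (SE 0.12, 95% CI -0.78 to -0.26, limma adjusted p = 0.0469), that is to 0.697 times the NP level, from its 1 probe set. It differed by -0.58 to -0.48 with each array left out. The call was lost without LP replicate 2 (adjusted p = 0.156), LP replicate 3 (0.120), LPtau replicate 1 (0.0679) or 2 (0.0675), NPtau replicate 1 (0.0593), or NP replicate 1 (0.160), 2 (0.104) or 3 (0.102).

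Pklr had values of 8.26, 8.59 and 9.14 in LP livers, 9.14, 9.25 and 8.90 in LPtau livers, 8.71, 9.18 and 9.33 in NPtau livers and 8.97, 9.20 and 9.38 in NP livers. LP replicates 1 and 2 were the lowest of the 12, and LP replicate 3 lay among the other diets. The difference of LP from NP was -0.52 (SE 0.23, unadjusted p = 0.0414, limma adjusted p = 0.203) and -0.32 without LP replicate 1. The other 2 Pklr sets gave -0.52 (SE 0.18) and -0.72 (SE 0.26), the last without overlap. A second promoter of Pklr makes the red cell enzyme, and the liver at birth still makes red cells. Of 8 erythroid markers 7 were lower in LP than in NP and none passed (median difference -0.44), and their mean relative to NP was -0.89 to -0.12 on LP arrays and -0.24 to 0.18 on NP arrays. Their part in the Pklr values was not tested.

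Slc2a2 had values of 11.65, 11.52 and 11.51 in LP livers, 11.49, 11.45 and 11.54 in LPtau livers, 11.10, 11.80 and 11.06 in NPtau livers and 11.03, 11.54 and 11.40 in NP livers. It was the 1 gene with a higher mean in LP than in NP, by 0.23 (SE 0.19, 95% CI -0.18 to 0.65, limma adjusted p = 0.475), and the diets overlapped.

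Taurine added to low protein changed none of the 9 genes by the test, where 0.066% of all genes were called. LPtau exceeded LP for 8 of the 9, with a median of 0.44 against -0.01 over all genes. Without LP replicate 1 these were 6 of the 9 and 0.13. Gys2 and Fbp1 had an unadjusted p under 0.05, as had 1543 of the 18193 genes. The LP livers enter both this comparison and the one with NP, so the 2 are linked and each is given for itself. Gys2 was 10.28, 10.30 and 10.12 in LPtau livers and 9.70, 9.68 and 9.78 in LP livers, a difference of 0.51 (SE 0.12, 95% CI 0.26 to 0.77, limma adjusted p = 0.185). Fbp1 was 13.72, 13.78 and 13.92 in LPtau livers and 13.23, 13.48 and 13.33 in LP livers, a difference of 0.46 (SE 0.11, 95% CI 0.22 to 0.70, adjusted p = 0.214). These were the 2 genes without overlap, which was the case for 6.77% of all genes as higher. With LP replicate 1 and NPtau replicate 2 both left out, Gys2 passed (0.50, SE 0.11, adjusted p = 0.0473). The difference for G6pc was 0.84 (SE 0.52, adjusted p = 0.692) and for Pck1 0.58 (SE 0.58, adjusted p = 0.82), and without LP replicate 1 they were 0.05 and -0.0082. For Ppargc1a the tested set gave 0.04 (SE 0.64), with -0.53 to 0.62 as single arrays were left out, and the 4 others gave 0.41 to 0.74.

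In LPtau against NP limma called 0% of all genes and none of the 9. At an unadjusted p under 0.05 stood 1231 genes and none of the 9. Gys2 differed by -0.01 (SE 0.12, 95% CI -0.26 to 0.25) and Fbp1 by -0.10 (SE 0.11, 95% CI -0.34 to 0.15), and the 2 intervals bound what this number of arrays could show.

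Taurine added to the normal protein diet changed none of the 9 genes by the limma test, where 0% of all genes were called and 500 had an unadjusted p under 0.05. Besides Ppargc1a, Gys2 had an unadjusted p under 0.05, with 9.94, 10.15 and 9.73 in NPtau livers and 10.28, 10.32 and 10.12 in NP livers. These overlapped, and the difference was -0.30 (SE 0.12, 95% CI -0.56 to -0.04, adjusted p = 0.995). Without NPtau replicate 3 the Gys2 difference was -0.20. Fbp1 differed by -0.04 (SE 0.11), Pklr by -0.10 (SE 0.23) and Slc2a2 by -0.01 (SE 0.19), and without NPtau replicate 2 Pklr differed by -0.16 and Slc2a2 by -0.24. LPtau against NPtau, with 0% of all genes called and 863 at an unadjusted p under 0.05, gave 0.29 for Gys2 (SE 0.12, unadjusted p = 0.0283, adjusted p = 0.999) and 1.34 for Ppargc1a (SE 0.64). The Gys2 value was 0.19 without NPtau replicate 3, and the Ppargc1a value was 0.76 without LPtau replicate 1 and 1.92 without LPtau replicate 3.

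Whether taurine went with a different change under low protein than under normal protein was tested as the interaction, LPtau minus NPtau less LP minus NP. None of the 9 passed and 0% of all genes were called, with 1540 at an unadjusted p under 0.05. Gys2 gave 0.81 (SE 0.17, unadjusted p = 0.000441, limma adjusted p = 0.303) and Fbp1 0.50 (SE 0.16, unadjusted p = 0.00789, adjusted p = 0.535). Larger estimates with larger errors came from Ppargc1a (1.52, SE 0.90), Pck1 (1.42, SE 0.82) and G6pc (1.31, SE 0.73). Each had an unadjusted p above 0.05. The low arrays described above enter the values of Pck1 and G6pc. The other Ppargc1a probe sets gave 1.42 to 1.72, with an unadjusted limma p of 0.00436 to 0.0432. With every probe set tested none of these passed (adjusted p = 0.593 to 0.655).

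**Figure D3:**
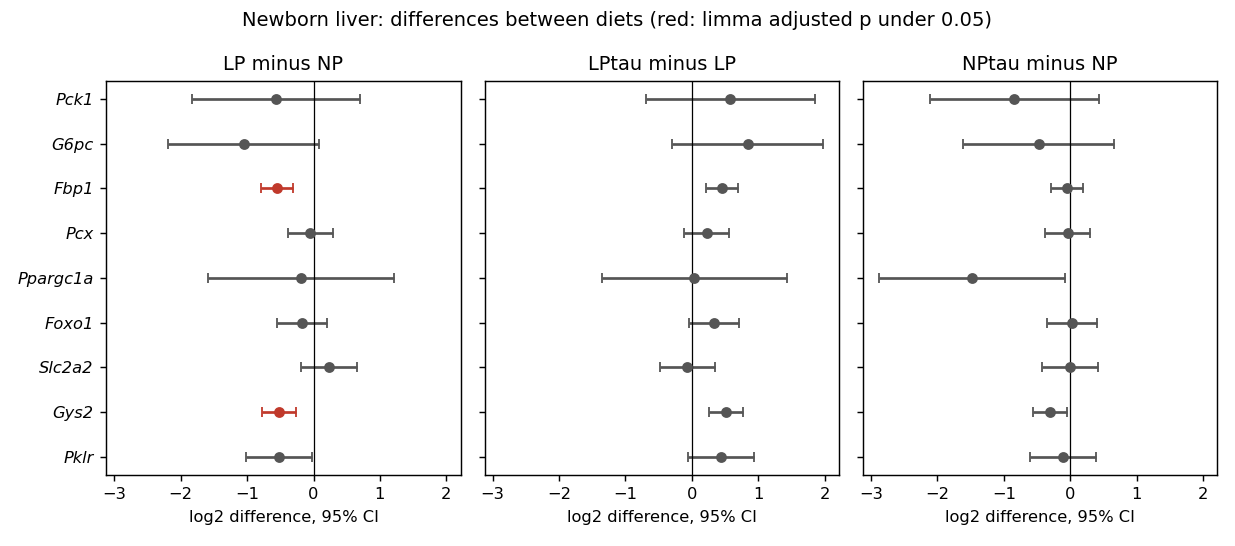
Differences in log2 expression between diets in liver for the 9 genes, with 95% confidence intervals from limma, 1 panel per comparison. Red marks an adjusted p under 0.05, which is met by Fbp1 (-0.55) and Gys2 (-0.52) in LP against NP and by no gene in the other comparisons, and the intervals of Pck1, G6pc and Ppargc1a are the widest.

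The other genes of these pathways moved in both directions in LP against NP livers. Among 22 genes of the gluconeogenic route 2 rose, 3 fell and 17 did not pass. The transaminase Gpt, which makes pyruvate from alanine, rose by 2.24 (SE 0.23, limma adjusted p = 0.00376) and cytosolic malate dehydrogenase Mdh1 rose by 0.73 (SE 0.15, adjusted p = 0.0374). Besides Fbp1, the mitochondrial glycerol-3-phosphate dehydrogenase Gpd2 fell by 1.21 (SE 0.24, adjusted p = 0.0351) and the triokinase Tkfc fell by 0.86 (SE 0.14, adjusted p = 0.0172). All probe sets of Gpt (2 of 2), Mdh1 (5 of 5) and Gpd2 (4 of 4) had the same sign, but their sizes differed. They ran from 0.55 to 2.24 for Gpt, 0.016 to 0.73 for Mdh1 and -1.37 to -0.25 for Gpd2. The mitochondrial and muscle partner enzymes Pck2 and Fbp2 and the widely expressed G6pc3 did not pass (-0.36, 0.31 and 0.07).

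Among 14 genes of glycolysis 1 fell, the liver phosphofructokinase Pfkl (-0.72, SE 0.16, adjusted p = 0.0464, 2 of its 3 probe sets with that sign), and 10 of 14 were negative. Of 25 genes of glycogen metabolism only Gys2 passed, and of 10 genes of hexose transport and entry only the fructose kinase Khk passed, which rose by 0.68 (SE 0.10, adjusted p = 0.0142). Among 42 regulators of the route none rose and 2 fell. The cyclic AMP responsive factor Crem fell by 2.62 (SE 0.54, adjusted p = 0.0368), with its 4 probe sets between -2.62 and -0.08. The catalytic AMP kinase subunit Prkaa1 fell by 1.15 (SE 0.25, adjusted p = 0.0425). Of 23 genes of hormone input Prkar2a, a regulatory subunit of protein kinase A, rose by 0.65 (SE 0.14, adjusted p = 0.041). Of 12 targets of the glucose and insulin responsive factors ChREBP and SREBP1c, a list that holds Pklr itself, malic enzyme Me1 fell by 1.40 (SE 0.27, adjusted p = 0.03). By the sets tested 11 of 12, Pklr among them, were negative. Probe sets of Acaca, Acacb, Acly, Elovl6, Txnip and Thrsp disagreed in sign, so that count depends on the set used. None of the 14 genes of pyruvate fate or of the 8 steps shared with glycolysis passed. There Pdhb, a subunit of pyruvate dehydrogenase, had the smallest p (0.44, SE 0.11, adjusted p = 0.0574), and among the shared steps aldolase Aldoa (-0.53, SE 0.18, adjusted p = 0.132).

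The 22 targets of cyclic AMP and fasting, which hold Pck1, G6pc and Ppargc1a, included Crem as the only gene called. Their mean relative to NP was -0.43, 0.05 and 0.11 on LP arrays, 0.52, 0.18 and -0.06 on LPtau arrays, -0.37, -0.38 and -0.24 on NPtau arrays and 0.02, 0.02 and -0.03 on NP arrays. The NPtau livers were all below the NP livers, LP replicate 1 stood below the other LP livers, and NPtau replicate 2 did not stand apart within NPtau. The ChREBP and SREBP1c targets were -0.92 to -0.24 on LP arrays and -0.28 to 0.31 on NP arrays. In LPtau against LP no gene of these lists was called. Pck2, the mitochondrial form of Pck1, was 9.29, 9.53 and 9.04 in LPtau livers and 7.99, 8.55 and 8.51 in LP livers, with no overlap and a difference of 0.93 (SE 0.18, limma adjusted p = 0.115).

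The partner forms used by other tissues stayed without a call in liver, in LP against NP. Foxo3 differed by -0.65 (SE 0.20, adjusted p = 0.102, 2 of 3 probe sets with that sign), Ppargc1b by -0.93 (SE 0.49), Pkm by -0.36 (SE 0.13), Gys1 by -0.21 (SE 0.22) and Hk2 by 0.38 (SE 0.34). Slc2a1 and Slc2a4, the glucose carriers GLUT1 and GLUT4, differed by -0.02 (SE 0.24) and -0.01 (SE 0.28).

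Genes whose level over the 12 livers was most like that of a member were sought by Pearson correlation. The search covered 8889 genes with a mean at or above that of the median gene. The 9 members and genes with provisional symbols, such as Rik, Gm and LOC entries, were left out. The nearest to Fbp1 were Man1a (0.97), Itih1 (0.96) and Dpp4 (0.96), and to Gys2 Fars2 (0.90), Abca8b (0.88) and Ednrb (0.86). Trim24 was nearest to Pck1 (0.95), Enc1 to G6pc (0.93), Hadhb to Pcx (0.89), Baiap2l1 to Ppargc1a (0.97), Nceh1 to Foxo1 (0.85), Ttc32 to Slc2a2 (0.92) and Cpn1 to Pklr (0.88). These are descriptions of 12 arrays that share their diets and, for Pck1 and G6pc, 2 low arrays. Among the 9 genes themselves G6pc had 0.66 with Fbp1 and 0.65 with Pklr, Gys2 had 0.64 with Foxo1 and 0.63 with Fbp1, and the lowest value was -0.50, between Pck1 and Slc2a2.

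In muscle none of the 9 genes was called by limma in LP against NP, and none reached an unadjusted p under 0.05, where 0.126% of all genes were called. Fewer members are well above the lowest values there. G6pc lay between 3.37 and 3.90, Slc2a2 between 3.37 and 3.76 and Gys2 between 3.40 and 3.63 on all 12 muscles, where the lowest value of any probe set in the files is 2.75, and Fbp1 lay between 4.38 and 5.51. Foxo1 ran from 7.72 to 8.72 and Pklr from 6.28 to 6.89, both from other probe sets than in liver. LP differed from NP by 0.05 for Foxo1 (SE 0.24) and by -0.12 for Pklr (SE 0.12). The Foxo1 set tested in liver gave -0.33 in muscle (SE 0.17), with every LP value below every NP value, and the 2 other sets gave -0.48 (SE 0.34) and 0.08 (SE 0.10), so the sign depended on the set.

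Pck1 varied widely in muscle. It had values of 4.60, 3.81 and 4.42 in LP muscles, 4.27, 3.79 and 7.79 in LPtau muscles, 3.77, 6.35 and 11.38 in NPtau muscles and 5.89, 7.07 and 8.15 in NP muscles. All LP values lay below all NP values, while LPtau and NPtau each held both low and high arrays. The difference of LP from NP was -2.76 (SE 1.61, 95% CI -6.31 to 0.78, limma adjusted p = 0.619). Pcx had values of 7.12, 7.04 and 6.51 in LP muscles, 5.84, 6.31 and 8.76 in LPtau muscles, 6.20, 7.86 and 10.94 in NPtau muscles and 7.85, 9.17 and 8.15 in NP muscles. LP was again below NP throughout (-1.50, SE 1.04, adjusted p = 0.7), and LPtau replicate 3 and NPtau replicate 3 were the highest of their diets for both genes. For the 9 genes 2 were lower without overlap, against 11.6% of all genes. Slc2a2 was higher without overlap (0.15, SE 0.10), against 7.99% of all genes, at values of only 3.37 to 3.76.

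White fat expresses Pck1 and Pcx, and markers of fat cells are given beside them. Adiponectin (Adipoq) had values of 10.71, 9.58 and 9.15 in LP muscles, 6.02, 6.22 and 11.53 in LPtau muscles, 6.86, 10.87 and 13.34 in NPtau muscles and 10.74, 11.98 and 11.26 in NP muscles. The same LPtau and NPtau arrays were highest, and LP lay below NP without overlap. Adipoq was higher on the LP arrays than on LPtau replicates 1 and 2 and NPtau replicate 1. Pck1 was 3.77 to 4.60 on all of these arrays. Of 5 fat cell markers measured 5 were lower in LP than in NP (median -0.75) and none passed. Their mean level was 7.89 to 8.42 on LP arrays, 7.11 to 9.27 on LPtau arrays, 7.19 to 10.61 on NPtau arrays and 8.76 to 9.58 on NP arrays, and Ucp1, the marker of brown fat, stayed between 3.65 and 4.83. Hepatocyte markers were higher in LP than in NP muscles for 8 of 8, with none passing, at a mean level of 5.11 to 6.84 on LP arrays and 4.73 to 5.18 on NP arrays. The part of either in the muscle values was not tested.

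**Figure D4:**
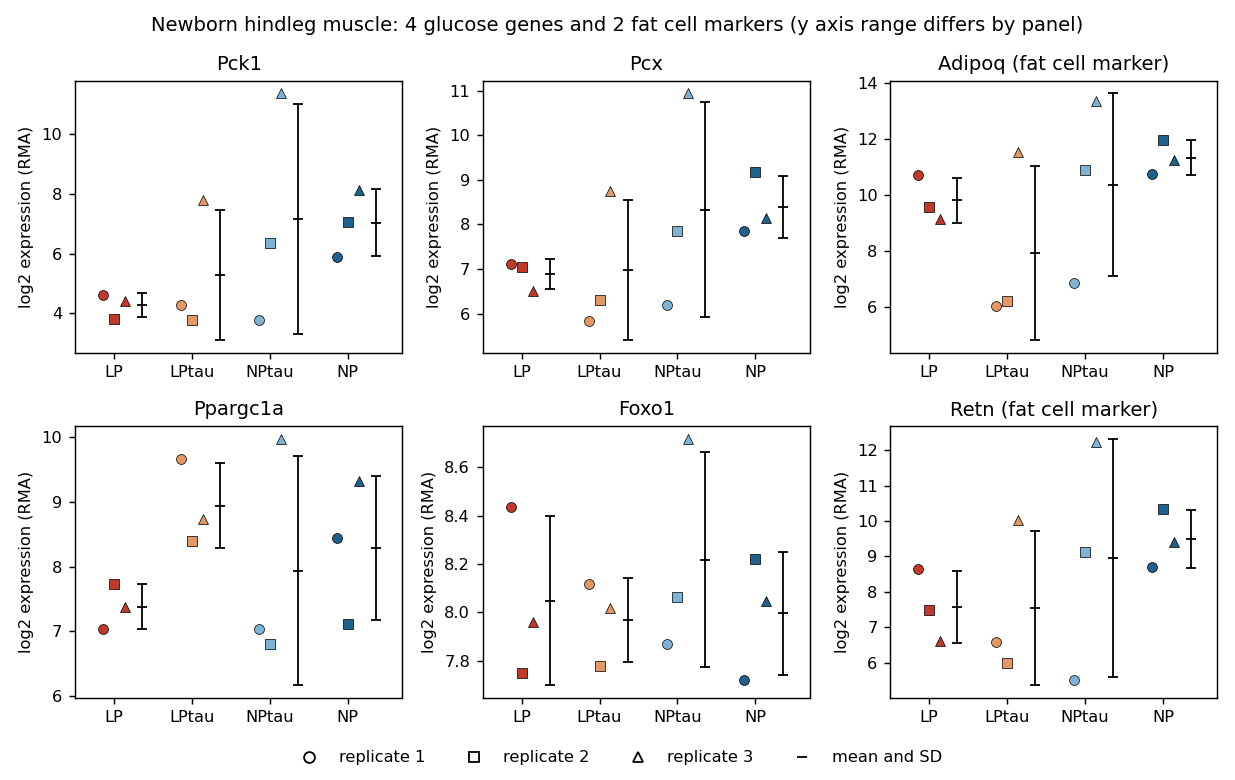
Log2 expression (RMA) of 4 of the genes and of the fat cell markers Adipoq and Retn on each of the 12 muscle arrays, by maternal diet, each panel with its own y range. Points are arrays, and lines with bars the mean and SD of 3. Pck1 reaches 11.38 in NPtau replicate 3, on the array where Adipoq reaches 13.34, and LP values of Pck1 lie at 3.81 to 4.60.

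Ppargc1a, which in muscle drives genes of mitochondria, had values of 7.04, 7.73 and 7.38 in LP muscles, 9.66, 8.40 and 8.74 in LPtau muscles, 7.03, 6.80 and 9.97 in NPtau muscles and 8.43, 7.11 and 9.32 in NP muscles. The LPtau muscles all exceeded the LP muscles, with a difference of 1.55 (SE 0.78, 95% CI -0.16 to 3.26, limma adjusted p = 0.425), and NPtau and NP overlapped both. The 4 other probe sets gave 1.15 to 2.04 for LPtau less LP, and -0.71 to -1.65 for LP less NP. All LPtau values above all LP values was the case for 9.03% of all genes. None of the 9 genes was called in any of the 6 muscle comparisons, where the share of all genes called was 0.022% in LPtau against LP, 0.126% in LP against NP and 0% in the others. In muscle the partner forms Gys1 (-0.79, SE 0.20, adjusted p = 0.151), Slc2a4 (-0.70, SE 0.16, adjusted p = 0.115) and Hk2 (-0.69, SE 0.21, adjusted p = 0.226) were lower in LP than in NP without overlap and without a call, and Slc2a1 was higher (1.89, SE 0.67, adjusted p = 0.317). Markers of other tissue in the hindleg moved beside them, none of them called. All 9 skeletal muscle markers were lower in LP than in NP, 6 without overlap (median -0.29), at a mean level of 12.66 to 13.24 on LP arrays and 13.28 to 13.39 on NP arrays. All 7 endothelial markers were lower (median -0.42), and all 5 chondrocyte markers were higher (median 2.11), at a mean level of 5.59 to 10.24 on LP arrays and 5.43 to 7.28 on NP arrays. Their part in these differences was not tested.

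Whether the difference of LP from NP was itself different in the 2 tissues was tested over all 24 arrays, where 1.97% of all genes were called. None of the 9 was among them. For Gys2 the liver difference less the muscle difference was -0.56 (SE 0.15, 95% CI -0.86 to -0.25, limma adjusted p = 0.0576), for Fbp1 -0.72 (SE 0.28, adjusted p = 0.197) and for G6pc -1.09 (SE 0.58, adjusted p = 0.344). Without liver LP replicate 1 the G6pc value was -0.30 (SE 0.30, adjusted p = 0.603). In muscle Gys2 (3.40 to 3.63) and G6pc (3.37 to 3.90) lay near the lowest values, with LP minus NP at 0.04 for each. For these genes the test therefore largely repeats the liver difference. At an unadjusted p under 0.05 stood 3 of the 9, Gys2, Fbp1 and Foxo1, and 3105 of the 18193 genes. Foxo1 was tested there by its brightest set over both tissues, which is not the set tested in liver. That set gave -0.68 (SE 0.32), while the set tested in liver gave 0.16 (SE 0.25) and the 2 others 0.11 and 0.12. With sex as a covariate Gys2 was called (-0.63, adjusted p = 0.0432). The labels do not say whether liver and muscle arrays of the same number come from 1 pup, and their sexes matched in 12 of 12 pairs. The test takes all 24 arrays as independent, which would not hold for arrays of 1 pup. With same-numbered arrays paired, a choice made after seeing the data, Gys2 had the same difference with an SE of 0.18 and an adjusted p of 0.137, and none of the 9 was called.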

How the data were processed

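Biotin-labelled RNA of 24 samples was read on Affymetrix mouse arrays. The submitters' processing notes name RMA, R 2.7.0 and MAS5, the last without its role, and the deposited log2 values were taken as the authors' RMA output. Liver and muscle were normalized separately, per the labels. No further normalization or filter on low values was applied. A single symbol was annotated for 34945 probe sets and several for 932, while 9160 carried no symbol besides 64 controls.

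A gene with several probe sets (9010 of 18193 genes) was tested by the brightest on average within its tissue, controls left out. The linear models of limma 3.58.1 (R 4.3.3) with eBayes fitted 4 diet means per tissue, with 8 residual degrees of freedom, and Benjamini-Hochberg adjustment over all genes within a comparison. The difference between the tissues was fitted on all 24 arrays. An exact two-sided test of 3 against 3 stops at p = 0.1. The code was tested on simulated data. Alternatives were other normalizations, probe set rules, covariates, array weights and each array left out. Named genes are the 9 members, the partner forms, called genes of each pathway list (at most 4 a direction, else the smallest p) and the 3 genes most correlated with a member. Markers and genes with probe sets of opposite sign are named beside these. The members, lists and markers were chosen with earlier results of these data known.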

Additional observations from a re-analysis of the deposited data

How the results depend on the processing

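Fbp1 and Gys2 kept a negative difference in LP against NP livers under all 23 alternatives and were called in 15 and 9 of them (adjusted p 0.00639 to 0.117 and 0.00472 to 0.160). Many of these settings could change only the error or the adjustment, and not the difference, for genes with 1 probe set. These were the probe set rules, the filter, the trend and only the diets compared. The replicate block and an LPtau or NPtau array left out were others. The sign under these settings was therefore fixed. Of the 9 genes, 2 were called with all arrays, 1 after quantile or cyclic loess normalization, with a filter on low values, with every probe set tested, with a sex covariate or with an intensity trend and robust prior, 0 with only the diets compared, and 0 to 2 with an array left out. Over all genes LP against NP called 425, with 244 under the sex covariate, 4727 under array weights, 21 to 2013 with an array left out, and 2914 with LP replicate 1 and NPtau replicate 2 left out, a choice made after seeing the data. LPtau against LP called 12 genes, with 0 after quantile or loess normalization or with every probe set, 20 with the mean of probe sets, 4 with sex, 512 with array weights, 7 with only the diets compared, 586 without both arrays and 0 to 269 with an array left out. Its called members, 0 of 9, became 1 (Gys2) with array weights and 1 without both arrays. In muscle LP against NP called 23 genes, with 62 and 65 after quantile and loess normalization, 39 with the filter, 38 with the mean of probe sets, 8 with every probe set, 5 with sex, 2 with the replicate block, 789 with array weights, 14 with only the diets compared and 2 to 126 with an array left out. For the tissue difference 1 member was called with sex and 0 to 1 with an array left out. The cause was not tested.

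Signs turned, counted where a difference exceeded its SE, for Pck1 in LPtau against LP livers (-0.0082 to 0.89 with an array left out, -0.0082 without both arrays) and in muscle for Fbp1 in LPtau against NP (-0.47 to 0.0031) and for Pck1 (-3.58 to 0.23) and Foxo1 (-0.42 to 0.0028) in LPtau against NPtau. Same-numbered samples of different diets did not deviate together throughout (correlations -0.21 to 0.42 in liver and -0.44 to 0.34 in muscle). In each tissue 6 of 18 such pairs were over 0.1. Whether the numbers mark a pairing or a batch cannot be told from this mix. With the replicate block Fbp1 and Gys2 were called (adjusted p = 0.0445 and 0.0495), and no member's call changed.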
